A study of Mus musculus with 2 samples.

Results

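The TNF superfamily ligands are the subject of this account, in 2 single-cell RNA libraries from mouse tumours. The 9 ligand genes taken were Tnf, Lta, Ltb, Fasl, Cd40lg, Tnfsf8, Tnfsf10, Tnfsf11 and Tnfsf14, chosen by symbol, and all 9 were among the 32285 genes of both count tables. The cells came from tumours of C57BL/6 mice and were sorted for CD45, found on leukocytes, together with CD90.2, the Thy1 protein of T cells and some other lymphocytes. One library was labelled Dapl1-KO, meaning deficient for Dapl1, and the other WT. Age, tumour model, number of pooled animals and how Dapl1 was deleted are not given in the sources used here. With 1 library for each genotype there is no replicate check: no test was run, every interval is an exact 95% interval for counting error only, and any difference between the libraries can be of genotype, animal or handling.

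The Dapl1-KO library held 19662 barcodes with 206322042 UMIs (counted molecules) and the WT library 16673 barcodes with 154408101 UMIs. The libraries shared 13132 barcodes, and the copy with fewer UMIs was dropped, which left 10098 Dapl1-KO and 8992 WT cells after filtering, at medians of 8463.5 and 7356 UMIs. The libraries also differed in sex: 69.5% of Dapl1-KO cells and 10.8% of WT cells had Y-linked UMIs without Xist, while 0.0891% of Dapl1-KO cells and 73.9% of WT cells had Xist without Y-linked UMIs. Sex and genotype label therefore cannot be told apart. With 13132 barcodes in both libraries, whether the Y-positive cells of the WT library came from WT animals was not tested. Ratios among cells with Y-linked UMIs, given below, share that limit. Dapl1 itself was at 29.2 CPM (counts per 1e+06 UMIs) in Dapl1-KO and 38.7 CPM in WT CD8 T cells, a log2 ratio of −0.41 (−0.48 to −0.33). The counts therefore do not by themselves bear out the Dapl1-KO label. Whether the 3′ reads lie outside a deleted stretch was not tested. Cells were assigned by gates on marker UMIs that use none of the 9 ligands, giving 4971 Dapl1-KO and 3780 WT CD8 T cells, 553 and 555 conventional CD4 T cells, 725 and 629 regulatory T cells, 582 and 595 innate-like T cells without CD4 or CD8, 86 and 97 type 17 gamma-delta T cells, 588 and 409 NK cells, and 131 and 48 monocytes or macrophages, in the same order of libraries. The gates left 24.0% of Dapl1-KO and 31.9% of WT cells unassigned. Of the genes the gates did not use, the T cell inhibitor Ctla4 was at 1376 CPM in Dapl1-KO and 1147 CPM in WT regulatory T cells. In conventional CD4 T cells Ctla4 was at 633 and 502 CPM. The myeloid lysozyme gene Lyz2 was at 2516 and 2383 CPM in Dapl1-KO and WT macrophages, against 81.7 and 194 CPM in innate-like T cells. The T cell receptor gene Trbc2 was at 312 and 347 CPM in NK cells, against 1279 and 1046 CPM in CD8 T cells. These genes do not show that every gate is pure.

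TNF superfamily ligands are trimeric proteins, mostly anchored in the membrane, that bind receptors of the TNF receptor superfamily on neighbouring cells. Some of the receptors carry a death domain and can trigger apoptosis, as Fas and the TRAIL receptor do, while others recruit TRAF adaptors and activate NF-kB. In tumours, activated T and NK cells use Fas ligand, TRAIL and TNF against target cells, and helper T cells use CD40 ligand to license antigen-presenting cells.

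Tnf, Lta and Ltb sit side by side in the major histocompatibility region of mouse chromosome 17 (GRCm38). Ltb lies at chr17:35194439-35196320 on the plus strand, Tnf at chr17:35199381-35202007 and Lta at chr17:35203165-35205351 on the minus strand, so that 3060 bases separate the ends of Ltb and Tnf and 1157 bases separate Tnf from Lta. Tnfsf14 lies further along the same chromosome, at chr17:57189492-57194177 on the minus strand. The others are on separate chromosomes, with Fasl at chr1:161780689-161788495 on the minus strand, Tnfsf10 at chr3:27317028-27342427 on the plus strand, Tnfsf8 at chr4:63831308-63861347 and Tnfsf11 at chr14:78277445-78308043 on the minus strand, and Cd40lg at chrX:57212143-57224042 on the plus strand.

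RefSeq promoter windows (GRCm38.p6, 250 bases before to 50 after the start) matched 8 of the 9 ligands. The windows of Tnf (chr17:35201958-35202257, minus strand), Ltb (chr17:35194257-35194556, plus strand), Fasl (chr1:161788446-161788745, minus strand), Tnfsf8 (chr4:63861235-63861534, minus strand) and Tnfsf10 (chr3:27316827-27317126, plus strand) are shown because the levels of these genes carry the results that follow. Capitals mark matches, on either strand, to the NFAT core GGAAA, the interferon-response half-site AANNGAAA, the box TATAAA or the NF-kB consensus.
Tnf promoter: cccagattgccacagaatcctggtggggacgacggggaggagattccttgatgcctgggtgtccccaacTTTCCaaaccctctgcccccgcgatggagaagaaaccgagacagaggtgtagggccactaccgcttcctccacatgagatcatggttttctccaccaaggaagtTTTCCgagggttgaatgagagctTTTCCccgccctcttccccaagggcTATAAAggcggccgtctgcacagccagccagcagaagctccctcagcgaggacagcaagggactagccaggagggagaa
Ltb promoter: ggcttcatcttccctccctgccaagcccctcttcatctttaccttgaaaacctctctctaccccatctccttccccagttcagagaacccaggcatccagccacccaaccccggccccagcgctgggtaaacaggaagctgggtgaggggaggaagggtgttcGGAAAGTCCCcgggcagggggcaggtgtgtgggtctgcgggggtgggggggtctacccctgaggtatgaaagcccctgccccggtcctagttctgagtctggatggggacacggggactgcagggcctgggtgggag
Fasl promoter: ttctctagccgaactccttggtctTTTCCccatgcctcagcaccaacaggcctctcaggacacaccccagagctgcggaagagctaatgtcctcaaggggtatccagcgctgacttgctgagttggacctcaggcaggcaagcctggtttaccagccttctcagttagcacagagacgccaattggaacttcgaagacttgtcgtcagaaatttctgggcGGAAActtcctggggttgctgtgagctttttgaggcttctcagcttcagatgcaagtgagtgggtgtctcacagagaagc
Tnfsf8 promoter: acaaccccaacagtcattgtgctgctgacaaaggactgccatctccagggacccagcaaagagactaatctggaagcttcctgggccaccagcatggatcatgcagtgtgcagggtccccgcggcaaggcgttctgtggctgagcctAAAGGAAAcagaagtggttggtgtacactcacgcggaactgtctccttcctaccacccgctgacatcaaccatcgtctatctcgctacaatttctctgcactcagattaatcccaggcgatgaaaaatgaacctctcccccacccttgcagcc
Tnfsf10 promoter: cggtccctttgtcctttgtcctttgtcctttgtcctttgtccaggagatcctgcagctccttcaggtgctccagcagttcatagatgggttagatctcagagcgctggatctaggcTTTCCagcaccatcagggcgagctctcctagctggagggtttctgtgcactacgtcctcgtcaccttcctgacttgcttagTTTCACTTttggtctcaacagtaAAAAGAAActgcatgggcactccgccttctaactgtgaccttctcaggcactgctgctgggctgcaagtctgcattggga
The Tnf window held 3 GGAAA matches and 1 TATAAA. The Ltb window held the single NF-kB match among the 8 windows, which overlaps its GGAAA match. Fasl had 2 GGAAA matches, Tnfsf8 had 1 GGAAA overlapping 1 AANNGAAA, and Tnfsf10 had 1 GGAAA and 2 AANNGAAA matches. Of 32851 mouse promoter windows of this length, 61.3% held GGAAA, 23.9% AANNGAAA, 13.6% TATAAA and 4.51% the NF-kB consensus. These are matches of letters and no binding was measured.

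Which cells held the UMIs of each ligand differed from gene to gene. CD8 T cells, which gave 63.2% of all UMIs in the Dapl1-KO and 54.7% in the WT library, held 67.6% and 59.4% of Fasl UMIs and 67.5% and 54.5% of Tnfsf10 UMIs, shares close to their share of all UMIs. Cd40lg had 33.8% of its Dapl1-KO and 25.8% of its WT UMIs in the conventional CD4 gate, which gave 2.71% and 3.37% of all UMIs, and 51.0% and 54.4% in unassigned cells. Monocytes or macrophages, with 0.834% of all Dapl1-KO and 0.486% of all WT UMIs, held 12.7% and 14.7% of Tnf UMIs.

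**Figure D1:**
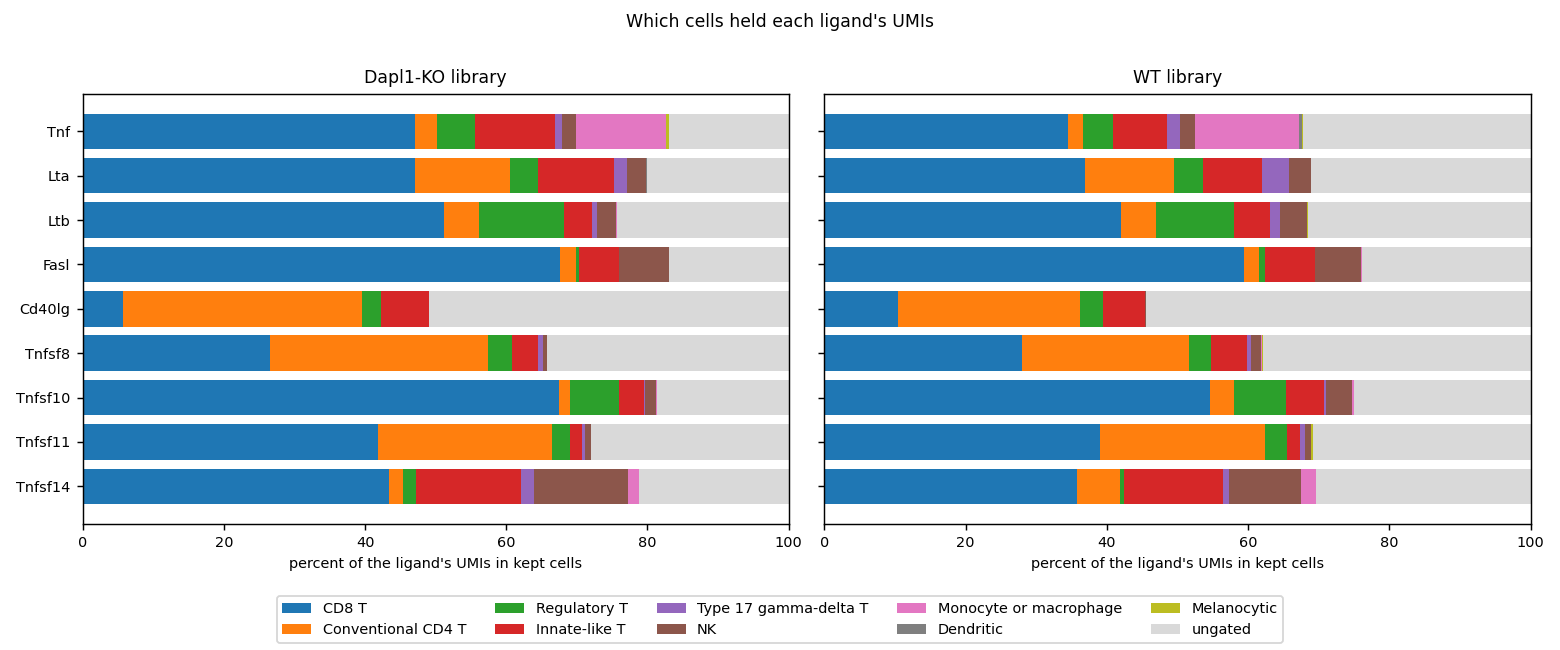
Share of each ligand's UMIs, in percent on the x axis, by cell group (colours), for each ligand (rows) in the Dapl1-KO (left) and WT (right) libraries. CD8 T cells held 67.6% and 59.4% of Fasl UMIs, conventional CD4 T cells 33.8% and 25.8% of Cd40lg UMIs, and macrophages 12.7% and 14.7% of Tnf UMIs.

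Levels are given in CPM, from the UMIs of all cells of a gate summed. They were compared over the 18 finest gates with at least 50 cells in each library, ordered by the mean of the 2 libraries. Neighbours in that order are called separate where the ranges of their 2 libraries do not overlap.

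**Figure D2:**
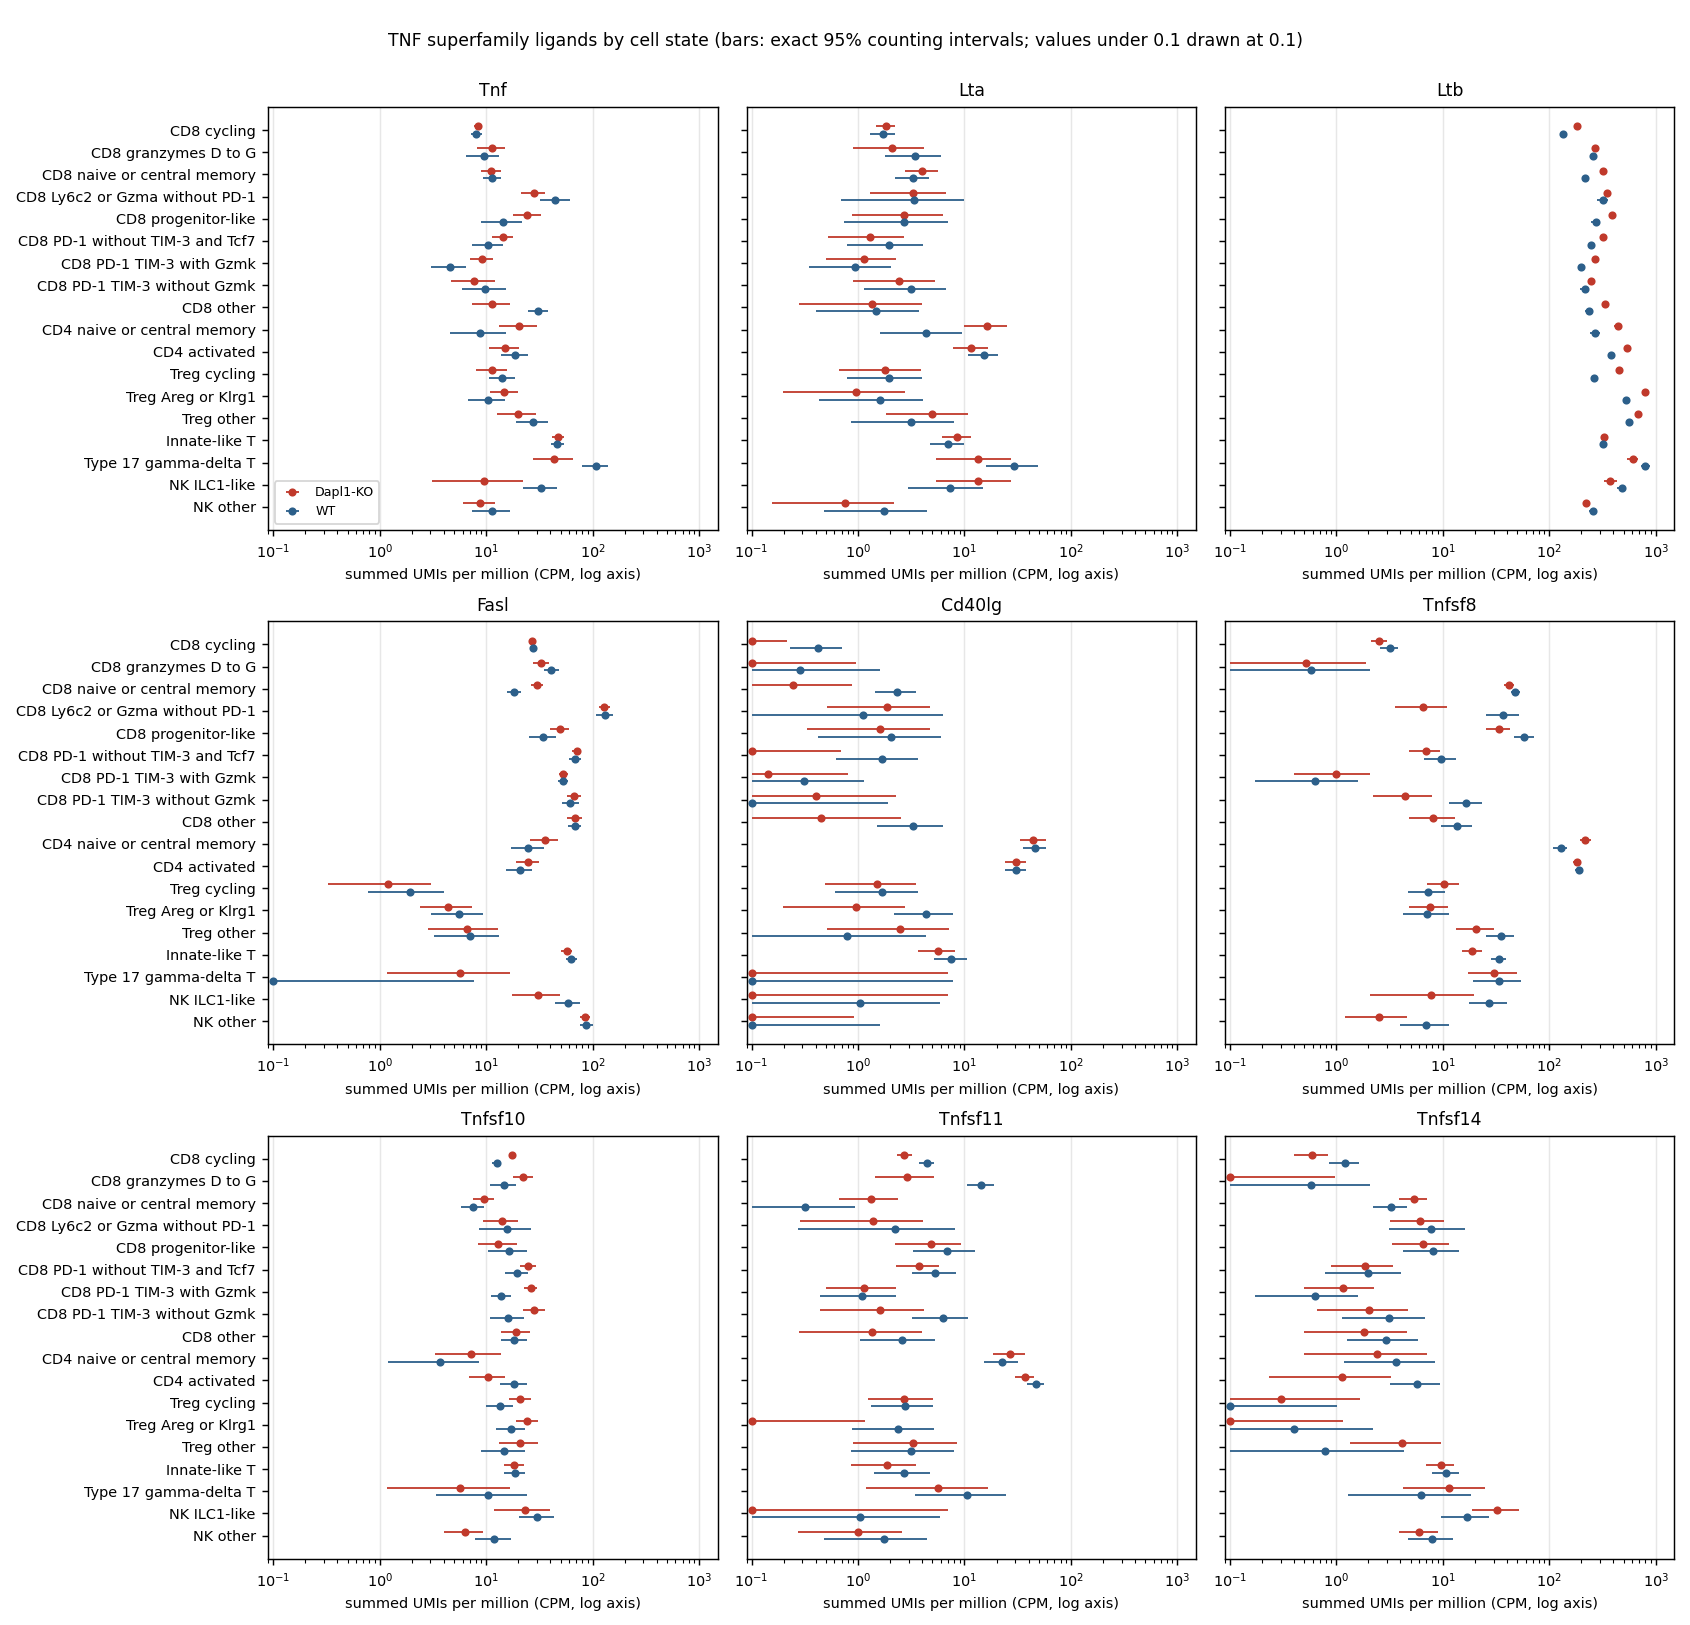
Level of each ligand (panel) in 18 gates (rows), in CPM on a log axis, for the Dapl1-KO (red) and WT (blue) libraries, with exact 95% counting intervals as bars and values under 0.1 drawn at 0.1. Cd40lg exceeds 30 CPM in the CD4 gates alone, and Fasl reaches 129 and 131 CPM in CD8 T cells with Ly6c2 or Gzma.

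Fasl (Fas ligand), which triggers apoptosis through Fas, was highest in CD8 T cells with Ly6c2 or Gzma and without PD-1, at 129 CPM in the Dapl1-KO and 131 CPM in the WT library. NK cells other than the ILC1-like ones followed at 84.1 and 87.1 CPM, separate from the gate above. CD8 T cells with PD-1 but without TIM-3 and Tcf7 were at 71.0 and 68.4 CPM, and those with PD-1, TIM-3 and Gzmk at 53.3 and 52.7 CPM. Cycling CD8 T cells were lower, at 27.2 and 27.8 CPM. The 3 regulatory T gates and type 17 gamma-delta T cells held least: cycling regulatory T cells were last at 1.19 and 1.94 CPM, overlapping type 17 gamma-delta T cells at 5.70 and 0 CPM. After each cell was thinned to 3000 UMIs, 32.9% of Dapl1-KO and 26.8% of WT cells of the Ly6c2 or Gzma gate had a Fasl UMI. The same measure gave 0 of 113 Dapl1-KO and 0 of 43 WT macrophages, which allows shares of up to 2.65% and 6.98% by the limit of 3 cells, and before thinning 131 Dapl1-KO and 48 WT macrophages held 0 and 3 Fasl UMIs.

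Tnfsf10 (TRAIL), the other death ligand, was present in each of the 18 gates. Its mean level was highest in ILC1-like NK cells, at 23.0 CPM in Dapl1-KO and 30.3 CPM in WT, and CD8 T cells with PD-1 and TIM-3 but no Gzmk were at 28.4 and 16.1 CPM. It was lowest in naive or central memory CD4 T cells, at 7.27 and 3.65 CPM. The first and last gates were separate, but every neighbouring pair of the 18 gates overlapped, so the order of Tnfsf10 levels between neighbours is not resolved.

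Cd40lg (CD40 ligand), the signal of helper T cells to CD40 on antigen-presenting cells, was at 44.4 CPM in Dapl1-KO and 46.0 CPM in WT naive or central memory CD4 T cells. Activated CD4 T cells, the name used here for all conventional CD4 T cells that did not meet that gate, were separate below them, at 30.3 and 30.5 CPM. No activation marker was required of them. Innate-like T cells followed at 5.60 and 7.50 CPM, and each of the remaining 15 gates was at 4.38 CPM or less in both libraries. NK cells gave 0 UMIs in 588 Dapl1-KO cells and 1 in 409 WT cells. With thinning, 14.3% of Dapl1-KO and 14.2% of WT naive or central memory CD4 T cells had a Cd40lg UMI, against 0 of 113 and 0 of 43 macrophages.

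Tnfsf8 (CD30 ligand) was at 182 CPM in Dapl1-KO and 192 CPM in WT activated CD4 T cells, and at 219 and 128 CPM in naive or central memory CD4 T cells. These gates overlapped, and both were separate from all the others. Progenitor-like CD8 T cells, with PD-1 and Tcf7 but no TIM-3, were next at 33.5 and 57.9 CPM, and naive or central memory CD8 T cells at 42.0 and 48.2 CPM. In CD8 T cells with granzymes D to G it was almost absent, at 0.523 and 0.574 CPM (2 UMIs in each library), and PD-1 TIM-3 cells with Gzmk were at 1.003 and 0.625 CPM. Both of these gates lay far below the progenitor-like and naive ones.

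Tnfsf11 (RANK ligand), best known as the signal that drives osteoclast formation, was likewise highest in the CD4 gates, but its CD8 states differed. It was at 37.0 CPM in Dapl1-KO and 47.0 CPM in WT activated CD4 T cells, separate from naive or central memory CD4 T cells at 26.6 and 22.6 CPM. The third gate, CD8 T cells with granzymes D to G, was at 2.88 and 14.4 CPM, where Tnfsf8 was almost absent. Naive or central memory CD8 T cells, which had high Tnfsf8 levels, were at 1.34 and 0.317 CPM of Tnfsf11. A few cells carried much of it: the 10 cells with most UMIs held 55.6% of Tnfsf11 UMIs in Dapl1-KO and 61.0% in WT activated CD4 T cells.

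Ltb (lymphotoxin beta), the membrane anchor of the lymphotoxin heterotrimer that binds the lymphotoxin beta receptor, was found in every lymphocyte gate. Type 17 gamma-delta T cells, at 608 CPM in Dapl1-KO and 801 CPM in WT, overlapped with regulatory T cells with Areg or Klrg1, at 792 and 530 CPM, and with the remaining non-cycling regulatory T cells at 680 and 567 CPM. Activated CD4 T cells came next at 542 and 380 CPM, separate from the remaining regulatory T cells but overlapping those with Areg or Klrg1. Cycling CD8 T cells were the lowest and separate, at 184 and 135 CPM. Among thinned regulatory T cells with Areg or Klrg1, 83.8% of Dapl1-KO and 71.1% of WT cells had an Ltb UMI, against 0 of 113 and 1 of 43 macrophages.

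Lta (lymphotoxin alpha), the partner of Ltb in that heterotrimer, was far sparser. It reached 10 CPM in a library in 4 gates: type 17 gamma-delta T cells at 13.3 CPM in Dapl1-KO and 29.3 CPM in WT, activated CD4 T cells at 11.6 and 15.3 CPM, ILC1-like NK cells at 13.4 and 7.32 CPM, and naive or central memory CD4 T cells at 16.1 and 4.38 CPM. These gates overlapped. Over all CD8 T cells Lta was at 1.96 and 2.09 CPM, against 227 and 177 CPM of Ltb in the same cells.

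Tnf itself was far higher in the macrophage gate than in any of the 18 gates, at 214 CPM in Dapl1-KO (258 UMIs in 131 cells) and 691 CPM in WT (397 UMIs in 48 cells). That WT gate is below 50 cells, so no ratio is given. Interferon-stimulated CD8 T cells, outside the 18 gates with 39 WT cells, were at 19.4 CPM in Dapl1-KO and 179 CPM in WT. Cells with 2 or more myeloid UMIs held 280 of those 289 WT Tnf UMIs. Among the 18 gates, type 17 gamma-delta T cells were at 43.7 and 107 CPM, overlapping innate-like T cells at 47.7 and 46.6 CPM. CD8 T cells with Ly6c2 or Gzma, at 27.9 and 44.7 CPM, were separate from the innate-like T cells but overlapped type 17 gamma-delta T cells. They were also separate from the gate below, the remaining non-cycling regulatory T cells at 19.8 and 27.3 CPM. The separation from innate-like T cells was lost without cells holding 2 or more myeloid UMIs, with innate-like T cells at 26.1 and 21.3 CPM and the Ly6c2 or Gzma gate at 24.1 and 44.4 CPM. In the remaining regulatory T cells such cells held 12 of 24 Tnf UMIs in Dapl1-KO and 24 of 35 in WT. Without them that gate was at 10.1 and 9.12 CPM. PD-1 TIM-3 CD8 T cells with Gzmk were lowest, at 9.17 and 4.53 CPM. Among the remaining gates the order between neighbours was not resolved, since all neighbours from the fourth to the last gate overlapped.

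Tnfsf14 (LIGHT), a ligand of HVEM and the lymphotoxin beta receptor, was at 32.6 CPM in Dapl1-KO and 16.7 CPM in WT ILC1-like NK cells, on 17 and 16 UMIs. Innate-like T cells were separate below them at 9.53 and 10.7 CPM. In regulatory T cells it was close to absent, with 6 UMIs in 725 Dapl1-KO and 2 in 629 WT cells.

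Some ligands shared their cells. Across the 18 gates in 2 libraries (36 points that share libraries and depth, a description only), Pearson's r of log2(CPM + 5) was 0.78 between Cd40lg and Tnfsf11, 0.77 between Cd40lg and Tnfsf8, 0.67 between Tnfsf8 and Tnfsf11, 0.63 between Lta and Tnfsf8 and 0.60 between Tnf and Lta, while Ltb and Fasl gave −0.56. Within activated CD4 T cells thinned to 3000 UMIs, 16.7% of Dapl1-KO and 15.4% of WT cells with a Tnfsf8 UMI also had a Tnfsf11 UMI, against 3.04% and 4.76% of cells without Tnfsf8, on 13 and 10 cells with both. Tnfsf8 was found in 35.5% of Dapl1-KO and 34.5% of WT cells with Cd40lg and in 21.6% and 20.6% of cells without it. At this depth 34.7% of Dapl1-KO and 30.5% of WT conventional CD4 T cells had UMIs of 2 or more of the 9 ligands. The share was 24.7% and 25.4% in innate-like T cells, 14.8% and 20.6% in NK cells, 14.3% and 11.9% in CD8 T cells and 10.7% and 9.11% in regulatory T cells.

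The genes whose levels across the same 36 points were most like each ligand were taken by Pearson's r. Fasl was most like Mctp2 (0.88), Ccl5 (0.87), a chemokine of cytotoxic lymphocytes, and Calhm6 (0.87). Cd40lg and Tnfsf11 shared the same closest gene, Gm14718, at 0.89 and 0.82. Gm14718, annotated as antisense RNA in GENCODE vM21, has an end that lies 7764 bases before the start of Cd40lg on the same strand, without overlap (chrX:57200643-57204378). Tnfsf8 was most like St6gal1 (0.83) and S1pr1 (0.80), which is a gate gene, and Ltb was most like Mthfs (0.85), Tmem59 (0.83) and Rhog (0.83). The closest genes were Cdc42ep3 (0.77) for Tnf, Tmem176a (0.79) for Lta, Coq9 (0.75) for Tnfsf10 and Paip2b (0.85) for Tnfsf14.

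The libraries were then compared within cell groups, the comparison that the study's design text names. A ligand was taken as higher or lower where its CPM differed at least 1.5-fold and reached 10 CPM in a library. In CD8 T cells 5 ligands reached that level and 1, Tnfsf8, passed the fold, while 4.53% of all 6726 genes at that level did so in either direction. In conventional CD4 T cells it was 0 of 8 (10% of all genes), in regulatory T cells 1 of 4, Ltb (8.57%), in innate-like T cells 1 of 6, Tnfsf8 (11.9%), and in NK cells 3 of 6, Tnf, Tnfsf8 and Tnfsf10 (8.82%). The Dapl1-KO over WT ratio of the median gene was within 0.10 of 0 on the log2 scale in each of these groups.

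**Figure D3:**
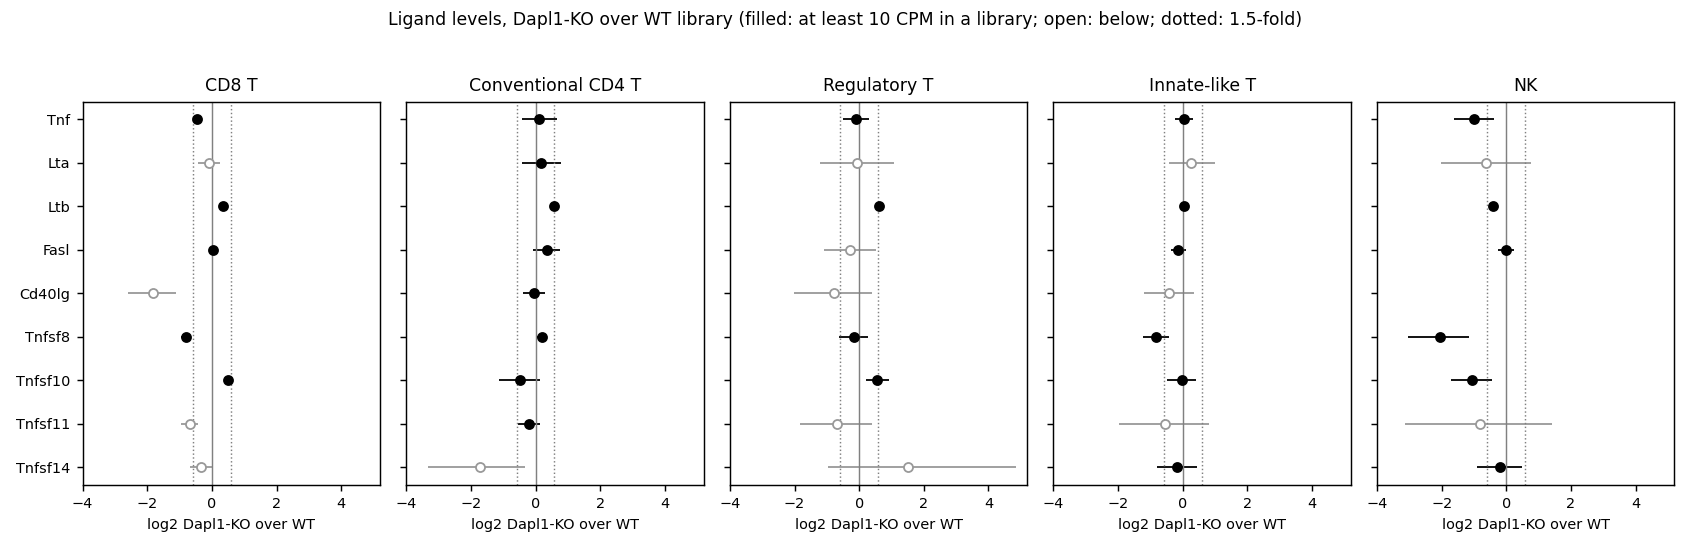
Log2 ratio of Dapl1-KO over WT for each ligand (rows) in 5 cell groups (panels), with exact 95% counting intervals; open points are below 10 CPM in both libraries and dotted lines mark 1.5-fold. Ltb lies at 0.63 in regulatory T cells and −0.42 in NK cells, and Tnfsf8 at −0.80 in CD8 T cells and 0.19 in conventional CD4 T cells.

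Ltb was higher in Dapl1-KO regulatory T cells, at 628 CPM against 406 CPM in WT, a log2 ratio of 0.63 (0.56 to 0.70). The T cell groups leaned the same way without passing the fold, with 510 CPM in Dapl1-KO and 342 CPM in WT conventional CD4 T cells (0.57, 0.47 to 0.67) and 227 and 177 CPM in CD8 T cells (0.36, 0.32 to 0.39). NK cells went the other way, at 241 CPM in Dapl1-KO and 321 CPM in WT (−0.42, −0.54 to −0.29), and innate-like T cells were level at 325 and 318 CPM. Among barcodes found in 1 library only, the ratio was 0.49 in CD8 T cells and 0.73 in conventional CD4 T cells, past the fold, as were 35.2% of all genes in those CD4 T cells. Too few WT regulatory T cells, 42, were left for a value there. Restricted to Y-positive, Xist-negative cells of both libraries it was 0.15 in CD8 T cells (3775 Dapl1-KO and 573 WT cells) and 0.86 in conventional CD4 T cells (327 and 53 cells), and the WT library had 22 such regulatory T cells, so the regulatory T value was not given within 1 sex. Weighting each cell equally brought regulatory T cells below the fold. The make-up of the regulatory T gate differed too. Cells with Areg or Klrg1 gave 41.0% of its UMIs in Dapl1-KO and 34.0% in WT, and cycling cells 43.3% and 48.7%. The part of this make-up in the Ltb ratio was not tested.

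Within finer states, Ltb was above 0 on the log2 scale in all 9 CD8 states with 50 or more cells in each library, both CD4 states and all 3 regulatory T states. It passed the fold in cycling regulatory T cells, at 455 CPM in Dapl1-KO against 263 CPM in WT (0.79, 0.67 to 0.91), and in naive or central memory CD4 T cells, at 439 and 270 CPM (0.70, 0.51 to 0.90). Over all genes, 18.2% and 30.1% passed it in those gates. Regulatory T cells with Areg or Klrg1, at 792 CPM in Dapl1-KO and 530 CPM in WT, stayed under the fold. So did the remaining non-cycling regulatory T cells, at 680 and 567 CPM. CD8 states ran between 0.08 (granzymes D to G, with an interval that includes 0) and 0.55 (naive or central memory). Type 17 gamma-delta T cells were at −0.40, ILC1-like NK cells at −0.35 and the other NK cells at −0.19, with intervals below 0.

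In the finer gates the counts of ligands past the fold, in either direction, were as follows beside the share of all genes. Over the 18 gates there were 32 such calls, a total to be read only beside the shares of all genes, which ran from 3.87% to 40.1% by gate. None passed in cycling CD8 T cells (0 of 3; 3.87% of all genes), in CD8 T cells with PD-1 and without TIM-3 and Tcf7 (0 of 4; 11.4%) or in regulatory T cells with Areg or Klrg1 (0 of 3; 13.4%). Among the other CD8 states 2 of 5 passed in cells with granzymes D to G (12.7%), 1 of 4 in naive or central memory cells (14%), 2 of 5 in cells with Ly6c2 or Gzma (23.5%) and 2 of 5 in progenitor-like cells (19.8%). A further 1 of 3 passed in PD-1 TIM-3 cells with Gzmk (8.63%), 2 of 4 in those without Gzmk (17.3%) and 2 of 5 in the rest (15.7%). In cycling regulatory T cells 2 of 4 passed (18.2%). One passed in activated CD4 T cells (1 of 8; 11.8%), where Tnfsf10 was at 10.5 CPM in Dapl1-KO and 18.3 CPM in WT. One also passed in the remaining regulatory T cells (1 of 4; 22.8%), where Tnfsf8 was at 20.6 and 35.1 CPM, and in NK cells other than ILC1-like ones (1 of 4; 9.95%), where it was Tnfsf10. The 3 gates with the highest shares over all genes gave 4 of 7 in naive or central memory CD4 T cells (30.1%), 5 of 7 in ILC1-like NK cells (31.2%) and 5 of 7 in type 17 gamma-delta T cells (40.1%). The type 17 calls rested on few UMIs in Dapl1-KO and WT, with 23 and 51 for Tnf and 7 and 14 for Lta. Tnfsf10 and Tnfsf11 each had 3 and 5, and Tnfsf14 had 6 and 3.

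**Figure D4:**
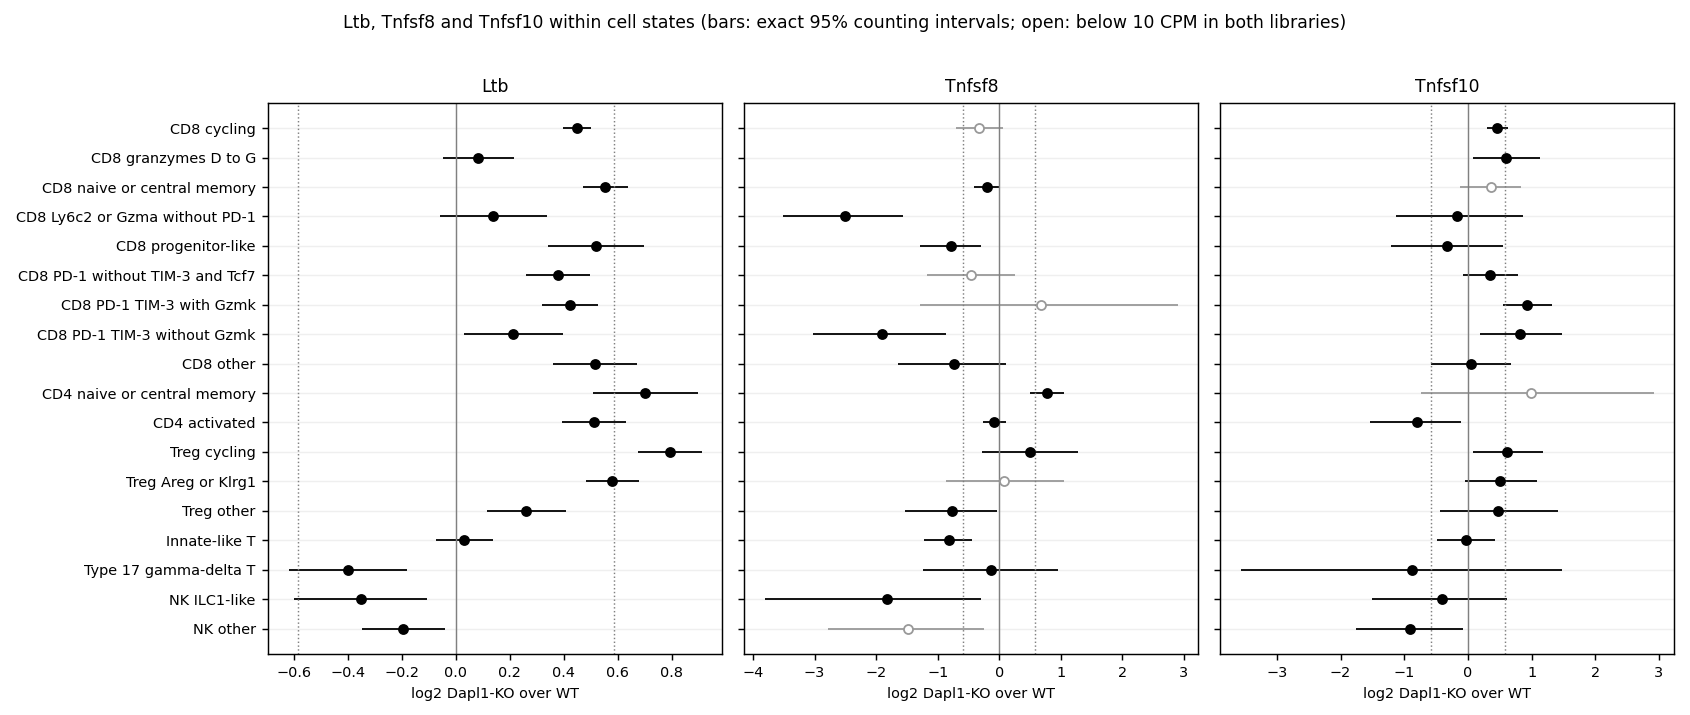
Log2 ratio of Dapl1-KO over WT of Ltb, Tnfsf8 and Tnfsf10 (panels) in 18 gates (rows), with exact 95% counting intervals; open points are below 10 CPM in both libraries, dotted lines mark 1.5-fold, and the panels differ in scale. Ltb spans −0.40 to 0.79, Tnfsf8 reaches −2.50 in CD8 T cells with Ly6c2 or Gzma, and Tnfsf10 reaches 0.93 in PD-1 TIM-3 CD8 T cells with Gzmk.

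Tnfsf8 was lower in Dapl1-KO CD8 T cells, at 7.13 CPM against 12.4 CPM in WT, a log2 ratio of −0.80 (−0.95 to −0.64). After thinning, 2.60% of Dapl1-KO and 5.35% of WT CD8 T cells had a Tnfsf8 UMI. The make-up of the CD8 gate differed too: naive or central memory cells, which had high Tnfsf8 levels, gave 9.02% of its UMIs in Dapl1-KO and 14.6% in WT, and cycling cells 59.4% and 51.3%. Within states the difference was not even. It was small in naive or central memory cells, at 42.0 CPM in Dapl1-KO and 48.2 CPM in WT (−0.20, −0.40 to 0.01), and passed the fold in progenitor-like cells, at 33.5 and 57.9 CPM (−0.79, −1.28 to −0.30). In PD-1 TIM-3 cells without Gzmk it was 4.46 and 16.6 CPM (−1.90), on 11 and 32 UMIs, with up to 6 and 9 in 1 cell. Cells with 2 or more myeloid UMIs held 7 of those 11 Dapl1-KO UMIs. In cells with Ly6c2 or Gzma Tnfsf8 was at 6.51 and 36.9 CPM (−2.50), on 14 and 33 UMIs, with up to 15 of the WT UMIs in 1 cell. CD8 T cells that met no other state gate were at 8.16 and 13.6 CPM (−0.74, −1.64 to 0.11). Of all genes, 19.8% passed the fold in progenitor-like cells, 17.3% in PD-1 TIM-3 cells without Gzmk, 23.5% in cells with Ly6c2 or Gzma and 15.7% in the rest. Over all CD8 T cells the ratio was −0.60 among barcodes found in 1 library only and −0.39, short of the fold, among cells with Y-linked UMIs.

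Tnfsf8 was also lower in innate-like T cells, at 18.9 CPM in Dapl1-KO and 33.4 CPM in WT (−0.82, −1.22 to −0.44). In conventional CD4 T cells, where its level was highest, it was 194 CPM in Dapl1-KO and 170 CPM in WT (0.19, 0.04 to 0.34). The CD4 states differed: activated cells were at −0.08, and naive or central memory cells were past the fold in the upward direction at 0.78 (0.50 to 1.06), although 26.3% of Dapl1-KO and 24.5% of WT cells of that gate had a UMI after thinning. The 10 cells with most UMIs held 46.9% of Tnfsf8 UMIs in that Dapl1-KO gate and 40.0% in WT.

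Tnfsf10 was at 18.2 CPM in Dapl1-KO and 12.8 CPM in WT CD8 T cells, a log2 ratio of 0.51 (0.39 to 0.63) that stayed under the fold, and at 22.3 and 15.0 CPM in regulatory T cells (0.57, 0.22 to 0.93). The CD8 ratio was 0.88 among barcodes found in 1 library only and 0.72 among cells with Y-linked UMIs, past the fold in both, where 17.3% and 21.1% of all genes passed it. Within CD8 states it passed the fold in PD-1 TIM-3 cells with Gzmk, at 26.2 CPM in Dapl1-KO and 13.8 CPM in WT (0.93, 0.56 to 1.31), where 8.63% of all genes did. It also passed in those without Gzmk, at 28.4 and 16.1 CPM (0.82, 0.19 to 1.48), and in cells with granzymes D to G, at 22.2 and 14.6 CPM (0.60, 0.08 to 1.13), where 12.7% of all genes did. Progenitor-like CD8 T cells gave −0.33 (−1.21 to 0.55), on 24 UMIs in each library. NK cells were lower, at 8.19 CPM in Dapl1-KO and 17.3 CPM in WT (−1.08, −1.72 to −0.45).

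The 3 ligands lower in Dapl1-KO NK cells rested on few UMIs. Tnf had 40 UMIs in Dapl1-KO and 57 in WT NK cells, or 8.86 and 17.6 CPM (−0.99, −1.61 to −0.38), Tnfsf8 had 14 and 42 (−2.06, −3.05 to −1.16) and Tnfsf10 had 37 and 56. Among the 265 Dapl1-KO and 60 WT NK cells with barcodes found in 1 library only, the ratios were −0.49 for Tnf, −0.05 for Tnfsf10 and 0.42 for Tnfsf8, so that none passed the fold downwards, Tnfsf8 on 6 and 1 UMIs. The part of shared barcodes in these differences was not tested. ILC1-like cells gave 11.6% of NK UMIs in Dapl1-KO and 29.5% in WT. Outside them Tnf was at 8.76 and 11.4 CPM (−0.38, −1.15 to 0.41), Tnfsf8 at 2.50 and 7.001 CPM (−1.48, −2.78 to −0.25, on 10 and 16 UMIs and below 10 CPM) and Tnfsf10 at 6.26 and 11.8 CPM (−0.92, −1.76 to −0.08).

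Fasl differed little between the libraries in the groups with most of it. It was at 37.0 CPM in Dapl1-KO and 35.8 CPM in WT CD8 T cells, a log2 ratio of 0.05 (−0.03 to 0.12), at 78.0 and 78.7 CPM in NK cells (−0.01, −0.25 to 0.23) and at 57.4 and 62.9 CPM in innate-like T cells (−0.13, −0.38 to 0.11). These intervals exclude a difference of 1.5-fold in counting terms. Among CD8 states Fasl passed the fold in naive or central memory cells alone, at 29.9 CPM in Dapl1-KO and 18.2 CPM in WT (0.72, 0.43 to 1.01), a gate where 14% of all genes passed the fold. Progenitor-like CD8 T cells leaned the same way under the fold, at 49.2 and 34.1 CPM, on 91 and 50 UMIs. Those with granzymes D to G leaned the other way, at 33.0 and 41.1 CPM. ILC1-like NK cells were lower in Dapl1-KO, at 30.7 and 58.6 CPM (−0.93), on 16 and 56 UMIs. Cd40lg was likewise close in conventional CD4 T cells, at 34.8 CPM in Dapl1-KO and 35.8 CPM in WT (−0.04, −0.39 to 0.31). In CD8 T cells Cd40lg was near 0, with 23 UMIs in Dapl1-KO and 58 in WT.

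Tnfsf11 was at 33.8 CPM in Dapl1-KO and 38.6 CPM in WT conventional CD4 T cells (−0.19, −0.54 to 0.15). It was lower in CD8 T cells with granzymes D to G, with 11 UMIs in Dapl1-KO and 50 in WT (2.88 and 14.4 CPM, −2.32, −3.41 to −1.36). The 10 WT cells with most UMIs held 39 of those 50, up to 7 in 1 cell, a spread between cells that the counting interval does not cover. Lta in conventional CD4 T cells was at 13.04 and 11.5 CPM (0.18, −0.43 to 0.78). By CD4 state, naive or central memory cells were at 16.1 CPM in Dapl1-KO and 4.38 CPM in WT (1.88, 0.51 to 3.49, on 20 and 6 UMIs) and activated cells were at 11.6 and 15.3 CPM (−0.40, −1.12 to 0.32). Tnfsf14 in innate-like T cells was at 9.53 and 10.7 CPM (−0.16, −0.78 to 0.45).

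Tnf moved together with myeloid UMIs in CD8, regulatory and innate-like T cells. In CD8 T cells it was at 10.5 CPM in Dapl1-KO and 14.3 CPM in WT (−0.45, −0.58 to −0.32), but the 4.75% of Dapl1-KO and 2.59% of WT CD8 T cells with 2 or more UMIs of the myeloid genes Csf1r, Adgre1, C1qa, C1qb, Cd14 and Ms4a7 held 21.8% and 37.1% of these Tnf UMIs. Without them Tnf was at 8.83 and 9.45 CPM, a log2 ratio of −0.10. Interferon-stimulated CD8 T cells showed this most: 33 of 129 Dapl1-KO and 15 of 39 WT cells had such UMIs and held 62 of 77 and 280 of 289 Tnf UMIs, up to 8 and 105 in 1 cell. Leaving these CD8 T cells out gave −0.00 for all CD8 T cells, and cells with Y-linked UMIs gave 0.37. In innate-like T cells, cells with myeloid UMIs held 115 of 230 Tnf UMIs in Dapl1-KO and 121 of 205 in WT, and without them the level was 26.1 and 21.3 CPM in place of 47.7 and 46.6 CPM. Cells entered that gate through UMIs of Zbtb16, Klrb1c, Fcer1g or Tyrobp. Csf1r was at 10.2 CPM in Dapl1-KO and 9.77 CPM in WT innate-like T cells, against 2.64 and 1.21 CPM in CD8 T cells. Whether Fcer1g or Tyrobp UMIs of myeloid origin placed cells in the innate-like gate was not tested. In regulatory T cells they held 23.9% and 52.7% of Tnf UMIs, and leaving them out gave 11.2 CPM in Dapl1-KO and 7.67 CPM in WT (0.55) in place of 14.1 and 15.2 CPM (−0.10). In conventional CD4 T cells they held 7.69% and 1.64% of Tnf UMIs. Within the finer states Tnf passed the fold in 3 CD8 gates: it was lower in cells with Ly6c2 or Gzma (−0.68) and in those that met no other state gate (−1.45, where cells with myeloid UMIs held 36.9% of the WT Tnf UMIs), and higher in progenitor-like cells, at 24.4 CPM in Dapl1-KO and 14.3 CPM in WT (0.77, with an interval that includes 0). Leaving out cells with myeloid UMIs kept these directions. Tnf was then at 24.1 CPM in Dapl1-KO and 44.4 CPM in WT cells with Ly6c2 or Gzma. It was at 10.1 and 20.2 CPM in those that met no other state gate, and at 22.1 and 14.8 CPM in progenitor-like cells. NK cells with 2 myeloid UMIs (0 in Dapl1-KO and 1 in WT) held 0 Tnf UMIs in both libraries, and no WT type 17 gamma-delta T cell had 2 myeloid UMIs. What put myeloid UMIs into these cells was not tested.

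**Figure D5:**
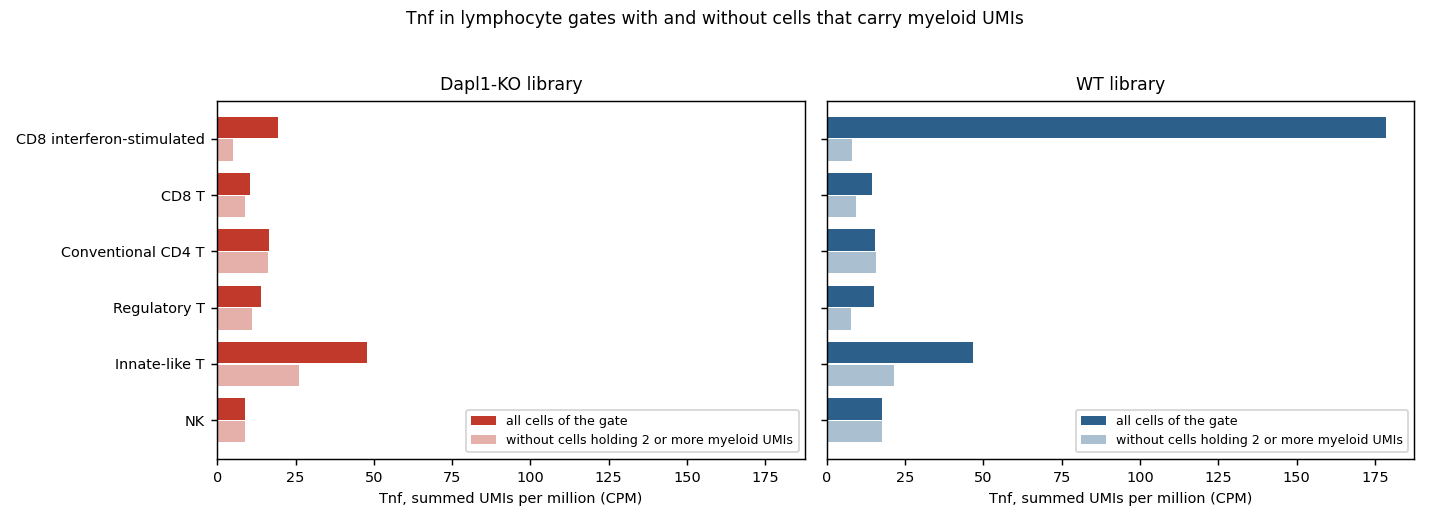
Tnf level (CPM, x axis) in lymphocyte gates (rows) of the Dapl1-KO (left) and WT (right) libraries, with all cells (dark) and without cells that hold 2 or more myeloid UMIs (light). Interferon-stimulated CD8 T cells fall to 4.95 CPM in Dapl1-KO and 7.95 CPM in WT without them, and NK cells barely move.

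Other genes of the pathway were followed in CD8 T cells as lists. Of 9 further ligands 3 reached 10 CPM and 1 was lower: Tnfsf9 (4-1BB ligand) was at 6.60 CPM in Dapl1-KO and 12.47 CPM in WT (−0.92, −1.07 to −0.76), while Cd70 gave −0.30 and Tnfsf4 (OX40 ligand) 0.14. Of 20 receptors and decoys 6 reached it and 1 was higher, Tnfrsf9 (4-1BB), the receptor of Tnfsf9, at 408 CPM in Dapl1-KO and 271 CPM in WT (0.59, 0.56 to 0.62). Tnfrsf1b (TNF receptor 2) was at −0.14 and Tnfrsf4 (OX40) at 0.10, and the list's median was 0.02 beside 0.05 over all 6726 genes. Of 23 signalling genes below the receptors 20 reached 10 CPM and 0 passed the fold in either direction, with a median of 0.05; the farthest were the adaptor Tradd at 0.48, the NF-kB subunits Rela at 0.39 and Nfkb2 at 0.28, and Traf6 at −0.23. Of 8 genes of shedding and message control 7 reached it and 1 was lower, Zfp36 (tristetraprolin), which promotes decay of Tnf and other AU-rich messages, at 68.4 CPM in Dapl1-KO and 103 CPM in WT (−0.60, −0.65 to −0.55). Its relatives Zfp36l1 (−0.53) and Zfp36l2 (−0.48) stayed just under the fold, Rc3h1 (Roquin-1) was at −0.20, and the list's median was −0.20.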

How the data were processed

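The files deposited by the authors hold raw UMI counts per gene and barcode, with no normalization, for 2 libraries. The kit, per the labels, was a 3′ kit of 10x Genomics. Cell Ranger 5.0.0 is named, with mm10 and GRCm38, per the submitters' processing notes. No barcode held fewer than 500 UMIs. Groups came from the genotype labels.

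Of the 13132 barcodes in both libraries, the copy with fewer UMIs was removed where the other had at least 2 times as many, and 21 pairs of closer size were discarded. A cell needed 500 or more genes and no more than 10% of its counts from mitochondrial genes. The automatic threshold of Scrublet (scanpy 1.11.5) called 0 doublets, so the highest scores at a rate of 0.8% per 1000 cells were removed, 1058 in the Dapl1-KO and 873 in the WT library. Gates used marker genes and no ligand of the family. Each cell took the first gate of marker UMIs that it met. One marker of the macrophage gate is not reported here.

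Counts were summed per gate and library and divided by the gate's total (CPM). Ratios have exact conditional intervals, levels exact Poisson intervals and shares exact Clopper-Pearson intervals, all at 95% and for counting error only. A share of 0 is given with the limit that 3 cells allow. A count of 0 was set to a floor of 3 in ratios, and none is given where both counts are 3 or fewer or a gate has under 50 cells in a library. Shares of cells were taken after thinning cells to 3000 UMIs. The calculation was tested on simulated data. With 1 library per genotype no test was made.

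Named genes are the 9 ligands, up to 4 genes per pathway list with the largest absolute log2 ratio in CD8 T cells at 10 CPM or more, and the genes most like each ligand by Pearson's r of log2(CPM + 5) among genes reaching 20 CPM in any gate. The ligands, lists, gates and tests were chosen with earlier results of these data known. Alternatives covered the barcodes and cells kept, scaling, weighting, sex of cells, the minimum level and the gates. The alternatives on myeloid UMIs, on the cells with most UMIs and on left-out CD8 states were chosen after seeing the data.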

Additional observations from a re-analysis of the deposited data

Results flagged for a closer look

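For 4 ligands the ratio passed 1.5-fold in opposite directions in different gates, with counting intervals that exclude 0 in both. None of these differences was tested, since each genotype has 1 library. Tnf had a log2 ratio of Dapl1-KO over WT of 1.20 in naive or central memory CD4 T cells (25 UMIs in Dapl1-KO and 12 in WT) and −1.76 in ILC1-like NK cells (5 and 31 UMIs). Fasl was at 0.72 in naive or central memory CD8 T cells (246 and 172 UMIs) and −0.93 in ILC1-like NK cells (16 and 56 UMIs). Tnfsf8 was at 0.78 in naive or central memory CD4 T cells (271 and 175 UMIs) and −2.50 in CD8 T cells with Ly6c2 or Gzma and without PD-1 (14 and 33 UMIs). Tnfsf10 was at 0.93 in PD-1 TIM-3 CD8 T cells with Gzmk (183 and 88 UMIs) and −1.08 in NK cells (37 and 56 UMIs).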

How the results depend on the processing

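The alternatives with a 20 CPM minimum and with no minimum level change only which ratios are called. They leave each ratio as reported, so they could not move it, and they are included in the counts of ratios below. Of 403 alternative log2 ratios of single ligands, 345 stayed within the counting interval of the reported value, and 23, for 13 of 35 ratios, had the other sign. One of these was of a ratio past the fold: Tnfsf8 in NK cells became 0.42 when barcodes found in both libraries were left out, on 6 and 1 UMIs. Ltb in CD8 T cells (0.15 to 0.49), Tnfsf10 in CD8 T cells (0.39 to 0.88) and Tnfsf8 in CD8 T cells (−0.91 to −0.39) kept their sign in 14 of 14 alternatives, and Ltb in regulatory T cells (0.53 to 0.73) in 10 of 10, while Tnf in CD8 T cells ran from −0.51 to 0.37, Tnf in regulatory T cells from −0.74 to 0.55 and Fasl in CD8 T cells from −0.29 to 0.35. The number of ligands past the fold, which was 1 in CD8, 1 in regulatory T, 0 in conventional CD4 T and 3 in NK cells, changed as follows. Without shared barcodes it was 2 in CD8, 5 in conventional CD4 T and 1 in NK cells, where 17.3%, 35.2% and 33.1% of all genes then passed. With doublets kept, with the stricter cell filter and with median gene ratio scaling it was 2 in regulatory T cells, and the stricter filter gave 1 in conventional CD4 T cells. Weighting cells equally gave 0 in regulatory T and 2 in conventional CD4 T cells. Cells with Y-linked UMIs gave 6 in conventional CD4 T cells, where 50% of all genes passed on 53 WT cells, and in CD8 T cells 1 (21.1%), which was Tnfsf10. A 20 CPM minimum gave 0 in CD8 and NK cells, and no minimum gave 3 in CD8, 4 in regulatory T, 1 in conventional CD4 T and 5 in NK cells, beside 24.8% to 27.5% of all genes. Gates with 1 more UMI gave 2 in conventional CD4 T cells. Leaving out cells with myeloid UMIs, or the 10 cells with most UMIs, gave 1 in conventional CD4 T cells, and the second of these gave 1 in NK cells. Without naive or central memory cells it was 0 in CD8 T cells, where Tnfsf8 fell under 10 CPM at a ratio of −0.77. The cause of the other changes was not tested. No value was given where a library had under 50 cells: regulatory T cells without shared barcodes (42 WT cells), and regulatory T (22) and NK cells (12) with Y-linked UMIs. No paired analysis was possible because each genotype has 1 library. Depth limits ligands under 10 CPM most, and a count of 0 in 3000 UMIs does not show that a cell lacks a ligand.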

Other observations

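The pathway lists were also counted outside CD8 T cells. The genes named here lie outside the naming rule and were chosen after their values were seen, because they are the listed genes past the fold. In regulatory T cells, where 8.57% of all genes passed the fold, 1 of 2 further ligands, 2 of 9 receptors and 1 of 20 signalling genes did: Cd70, the ligand of CD27, was at 14.2 CPM in Dapl1-KO and 5.41 CPM in WT (log2 1.40, 0.86 to 1.96), the death receptor gene Fas at 36.7 and 23.7 CPM (0.63) and the adaptor Traf1 at 304 and 203 CPM (0.59). Tnfrsf8 (CD30), the receptor of Tnfsf8, was lower, at 6.21 and 12.4 CPM (−1.003, −1.54 to −0.48). In conventional CD4 T cells (10% of all genes) 4 of 11 receptors and 1 of 22 signalling genes passed: Fas was at 46.5 and 28.6 CPM (0.70), Tnfrsf9 at 304 and 191 CPM (0.67) and Nfkb2 at 63.7 and 40.1 CPM (0.67), while Btla (−0.67) and Tnfrsf1a (−0.88) were lower.

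Tnfsf9, the ligand of 4-1BB, was lower in innate-like T cells (11.9% of all genes past the fold), at 12.8 CPM in Dapl1-KO and 32.3 CPM in WT (−1.33, −1.78 to −0.89), and in NK cells (8.82%), at 7.53 and 24.4 CPM (−1.69, −2.32 to −1.10). Tnfrsf4 (OX40) was lower in the same gates (−0.62 in innate-like T cells and −0.93 in NK cells). In innate-like T cells, where 1 of 2 further ligands, 2 of 8 receptors and 1 of 21 signalling genes passed, Tnfrsf1b was at 106 CPM in Dapl1-KO and 65.2 CPM in WT (0.70) and Nfkb2 at 52.0 and 30.4 CPM (0.77). In NK cells it was 1 of 2 further ligands, 1 of 8 receptors and 0 of 21 signalling genes. Of the 7 genes of shedding and message control at 10 CPM or more, 0 passed in each of these 4 groups.

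Unassigned cells had Tnf at 11.6 CPM in Dapl1-KO and 26.4 CPM in WT (−1.18, −1.36 to −0.998), on 346 and 870 UMIs. Cells with 2 or more myeloid UMIs held 16.2% of the Dapl1-KO and 60.9% of the WT Tnf UMIs there, and without them the levels were 10.6 CPM in Dapl1-KO and 11.4 CPM in WT.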
